A study of Mus musculus with 70 samples.

Results

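The genes described here are 10 ligands or ligand subunits, follistatin family genes and Bambi. The set was grouped as upstream of Acvr1c, a type I receptor of the TGF-β family. Whether each of them acts through Acvr1c was not tested. They were chosen by symbol and all 10 were found among the 24346 genes measured in mouse dorsal hippocampus. Of them, 9 averaged 1 FPKM or more and were among the 12994 genes tested. FPKM scale the fragments of a gene by transcript length and by the mapped fragments of a library, so levels can be set side by side between genes per length. Follistatin (Fst), with a mean of 0.942 FPKM, lay below that minimum.

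The study asked how patterns of voluntary wheel running change hippocampal RNA while a memory is being consolidated. Adult male C57BL/6 J mice, 12 weeks old and individually housed, formed 7 groups of 10 libraries, with 5 libraries in each group from each of 2 harvest cohorts collected 24 h apart. Group names give the days of initial exercise, of sedentary delay and of reactivating exercise. Mice of 14-0-0 ran with no delay before the task, those of 14-7-0 and 14-14-0 rested after running, those of 14-7-2 ran again after the rest, and those of 0-0-2 ran briefly. Wheels were absent during a delay, and no mouse had one on the last night before the task. These groups were compared with sedentary mice that never ran. All these mice had a 3 min training session in an object location memory task, too short on its own to leave a lasting memory, and tissue was taken 1 h later. Home cage mice had neither exercise nor the task.

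Activins are dimers of beta subunits, encoded by Inhba (beta-A) and Inhbb (beta-B). An alpha subunit, encoded by Inha, pairs with a beta subunit to make an inhibin, which opposes activin. Activins, Gdf11 and Tgfb2 signal through type II and type I receptors that phosphorylate Smad2 and Smad3. Follistatin binds activins and Gdf11 outside the cell. Bambi resembles a type I receptor without a kinase and dampens the signal. In hippocampal neurons Inhba is known as a gene induced by synaptic activity.

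In the mm10 build, Inhbb lies on the minus strand of chromosome 1 from 119415465 to 119422248 and Inhba on the plus strand of chromosome 13 from 16011851 to 16031621. The 250 bases before each start (RefSeq, GRCm38.p6) are shown because these genes encode the subunits that form activins. Whether their changes differed from each other was not tested. They span chr1:119422249-119422498 on the minus strand for Inhbb and chr13:16011601-16011850 on the plus strand for Inhba. Capitals mark the GC box GGGCGG on either strand in Inhbb, and the TATA box letters TATAAA on the coding strand in Inhba.
Inhbb: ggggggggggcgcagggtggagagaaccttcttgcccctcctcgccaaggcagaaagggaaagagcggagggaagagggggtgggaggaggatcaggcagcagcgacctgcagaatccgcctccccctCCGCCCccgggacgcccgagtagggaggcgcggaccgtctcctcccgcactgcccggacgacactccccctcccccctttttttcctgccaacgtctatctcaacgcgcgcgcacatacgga
Inhba: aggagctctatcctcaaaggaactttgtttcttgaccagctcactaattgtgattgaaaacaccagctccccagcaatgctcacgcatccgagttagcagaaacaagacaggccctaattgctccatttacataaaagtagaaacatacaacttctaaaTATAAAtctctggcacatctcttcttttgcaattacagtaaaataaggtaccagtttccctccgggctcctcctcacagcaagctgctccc
The Inhbb window held 68% G and C and 21 CpG dinucleotides, against 43.2% and 3 in Inhba. The median over 32851 promoter windows of this length was 52.4% and 6. The GC box letters occurred in 32.7% of those windows and the TATA box letters in 7.59%. The shorter site TGACG of the cAMP response element, searched on both strands, was in neither window and in 17.8% of all windows.

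FPKM levels of the 10 genes spanned about an order of magnitude. Tgfb2 was the highest, at 12.7 ± 3.06 FPKM (SD, n = 70), followed by Fstl1 at 9.76 ± 1.27 and Fstl5 at 7.10 ± 1.65. Gdf11 stood at 6.63 ± 0.936, Inha at 5.24 ± 1.90 and Fstl4 at 4.41 ± 1.05. Inhba at 2.26 ± 0.61, Bambi at 1.89 ± 0.474 and Inhbb at 1.45 ± 0.440 were low. None of the 10 was listed at 0 in any library. Read counts were not used here, and the depth of a value is thus unknown. The paper lists total reads per library, and a library there lies far below the others listed. Its names are not tied to the groups in the sources used here.

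**Figure D1:**
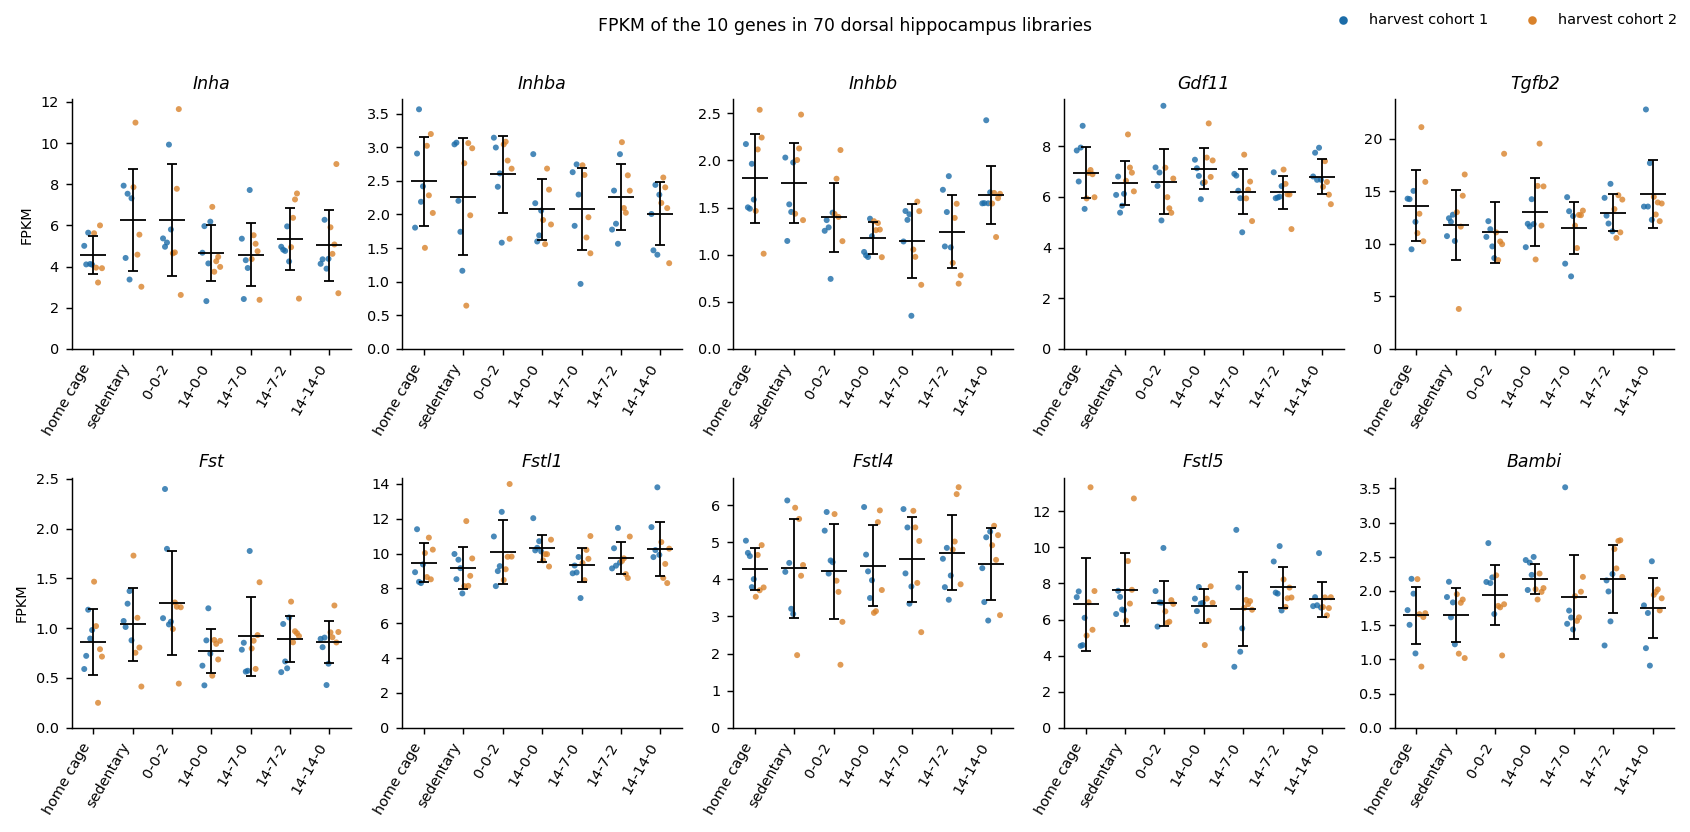
FPKM of each gene (vertical axes, from 0) in the 7 groups, 1 point per library coloured by harvest cohort, with the mean and SD of 10 libraries in black. Inhbb lay between 0.973 and 1.38 in 14-0-0 and between 1.15 and 2.49 in sedentary.

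Some libraries stood apart. In sedentary replicate 6 the pyramidal neuron gene Neurod6 stood at 2.45 FPKM, while the other 69 libraries had 78.4 to 269. Tgfb2 (3.80), Inhba (0.644) and the dentate granule cell marker Prox1 (2.91) were at their lowest of all libraries there. The inhibitory neuron marker Gad1 (279) and the oligodendrocyte marker Mbp (4390) were at their highest. This library enters all 6 comparisons with sedentary. In 14-7-0 replicate 4, 10279 genes were listed at 0, against 6243 to 7199 elsewhere, and Inhbb was at its lowest (0.351). Choroid plexus epithelium markers summed to between 23.3 and 371 FPKM in sedentary libraries and between 35.0 and 16174 in 14-0-0. All 10 of these markers were called higher in 14-0-0 and in 14-14-0, none of the 10 was at 0 throughout, and their part in the results was not tested except through the covariate below. In these bulk samples, fewer cells of a type and less RNA per cell cannot be told apart.

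Inhbb, the beta-B subunit, was lower than in sedentary mice in 3 exercise groups. In sedentary libraries it ranged from 1.15 to 2.49 FPKM with a median of 1.76. In 14-0-0 it ranged from 0.973 to 1.38 with a median of 1.23, and 10 of 10 libraries lay below the sedentary median. The groups overlapped, with 8 of 10 sedentary libraries above the highest 14-0-0 value. The log2 fold change was -0.52 ± 0.12 (SE, limma, unadjusted p = 0.000413, Benjamini-Hochberg adjusted p = 0.279), which placed Inhbb 19th of the 12994 genes by p. No gene passed adjustment by limma in any of the 8 comparisons, so calls below are at an unadjusted p under 0.05.

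In 14-7-0, Inhbb ranged from 0.351 to 1.56 FPKM with a median of 1.25, again with 10 of 10 libraries below the sedentary median. Its log2 fold change was -0.63 ± 0.21 (limma p = 0.0065, adjusted p = 0.968). Without 14-7-0 replicate 4 this was -0.47 (p = 0.00614). In 14-7-2, Inhbb ranged from 0.692 to 1.83 FPKM with a median of 1.24, and 9 of 10 libraries lay below the sedentary median. There the log2 fold change was -0.49 ± 0.17 (limma p = 0.00931, adjusted p = 0.847). By cohort it was -0.18 in cohort 1 and -0.80 in cohort 2, and the test of that difference gave p = 0.0725.

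The remaining groups gave other values for Inhbb. In 0-0-2 it ranged from 0.743 to 2.11 FPKM with a median of 1.38, and the log2 fold change of -0.31 ± 0.15 missed the threshold (limma p = 0.0547). With harvest cohort, a labelled batch, as a term the same value passed it (p = 0.0438), while without sedentary replicate 6 it was -0.29 (p = 0.0842). In 14-14-0 it ranged from 1.19 to 2.43 FPKM with a median of 1.57, a log2 difference from sedentary of -0.08 with a 95% interval from -0.35 to 0.19. Home cage libraries ranged from 1.01 to 2.54 FPKM with a median of 1.77, and the log2 difference was 0.03 with an interval from -0.29 to 0.36.

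Permutation of the labels gave p = 0.00061 for Inhbb in 14-0-0, 0.00373 in 14-7-0 and 0.0127 in 14-7-2 (two-sided, 100000 resamples). Adjusted over the 8 comparisons of the gene, these were 0.00488, 0.0149 and 0.0339. No permutation p given here, for Inhbb or any other member, was adjusted over the members. From low to high the group order was 14-7-0, 14-0-0, 14-7-2, 0-0-2, 14-14-0, sedentary and home cage. No neighbours in that order differed beyond their spread, with 0.11 as the smallest permutation p. All 21 pairs of groups were then compared, a choice made after the values were seen. Each of 14-7-0, 14-0-0 and 14-7-2 was lower than each of 14-14-0, sedentary and home cage, with p adjusted over the 21 pairs between 0.00378 and 0.0438. The direct log2 difference of 14-14-0 over 14-0-0 was 0.44 (permutation p = 0.00018, adjusted 0.00378).

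**Figure D2:**
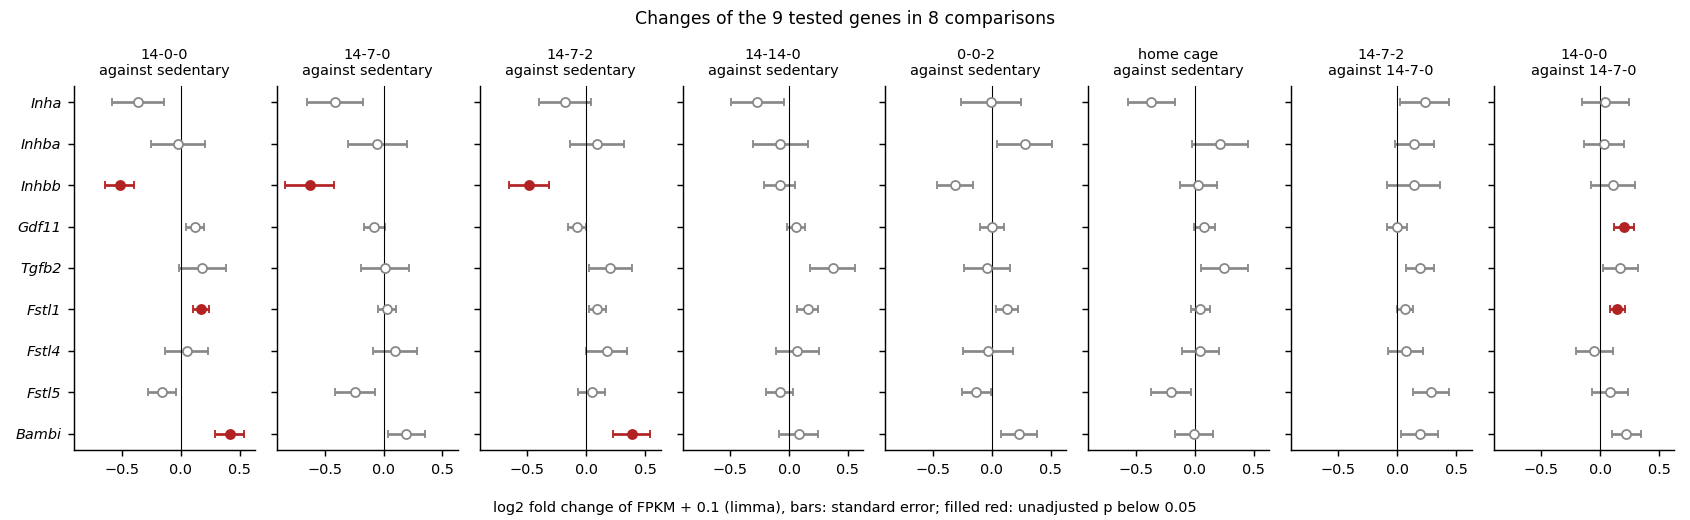
Log2 fold changes with standard errors (horizontal axes, limma on FPKM + 0.1) of the 9 tested genes in 8 comparisons, filled red where the unadjusted p was under 0.05. Inhbb is red and left of 0 in 14-0-0, 14-7-0 and 14-7-2 against sedentary, and Bambi is red and right of 0 in 14-0-0 and 14-7-2.

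Bambi, the decoy receptor, was higher than in sedentary mice in 14-0-0 and 14-7-2. Sedentary libraries ranged from 1.02 to 2.14 FPKM with a median of 1.83. In 14-0-0 the range was 1.88 to 2.50 with a median of 2.14, and 10 of 10 libraries lay above the sedentary median. The log2 fold change was 0.42 ± 0.12 (limma p = 0.00276, adjusted p = 0.296), and permutation gave p = 0.00075, or 0.006 over the 8 comparisons.

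In 14-7-2, Bambi ranged from 1.20 to 2.74 FPKM with a median of 2.23, and 8 of 10 libraries lay above the sedentary median. The log2 fold change was 0.38 ± 0.16 (limma p = 0.0227, adjusted p = 0.847), and permutation gave p = 0.0281, or 0.112 over the 8 comparisons. The cohorts differed: 0.06 in cohort 1 and 0.71 in cohort 2, with p = 0.032 for the difference. Bambi in 14-7-0 had a median of 1.66 FPKM, in 0-0-2 of 1.96, in 14-14-0 of 1.84 and in home cage of 1.67, and none of these groups was called. In the order of group means from home cage up to 14-0-0, no neighbours differed beyond their spread, with 0.342 as the smallest permutation p. Over all 21 pairs of groups, 2 had an adjusted permutation p under 0.05: 14-0-0 over sedentary (0.0157) and over home cage (0.016). For 14-7-2 over sedentary it was 0.128. The direct log2 difference of 14-7-2 over 14-7-0 was 0.19 (permutation p = 0.247).

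Of the ligands other than Inhbb, Gdf11 was called in 1 comparison. It ranged from 5.91 to 8.90 FPKM in 14-0-0 with a median of 6.98, and from 4.61 to 7.67 in 14-7-0 with a median of 6.27. The direct log2 difference was 0.20 ± 0.08 (limma p = 0.0286, adjusted p = 0.777). Without 14-7-0 replicate 4 it was 0.15 (p = 0.0555). The call was also lost with the choroid plexus score in the fit (0.14, p = 0.183), by Cyber-T (p = 0.0755) and in each cohort alone. All 10 choroid plexus markers were called higher in this comparison, with a median log2 change of 2.54. Against sedentary, Gdf11 gave 0.12 in 14-0-0 and -0.08 in 14-7-0, neither of them called. Without sedentary replicate 6, where Gdf11 was highest among sedentary libraries, it was called in 14-0-0, at 0.16 (limma p = 0.0318). It was still not called in 14-7-0, at -0.04 (limma p = 0.673).

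Tgfb2, known as a neuronal and glial TGF-β, had its highest levels in 14-14-0, from 12.1 to 22.8 FPKM with a median of 13.7, against 3.80 to 16.6 with a median of 12.3 in sedentary. The log2 difference of 0.37 ± 0.19 missed the threshold by limma (p = 0.0661), while permutation gave p = 0.0449, or 0.359 over the 8 comparisons. Without sedentary replicate 6, where Tgfb2 was lowest, the difference was 0.20 (p = 0.0807), and with the choroid plexus score in the fit 0.24 (p = 0.291). It was called in the joint fit of the 7 groups (p = 0.0215), by Cyber-T (p = 0.0344) and in cohort 1 alone (0.42, p = 0.0255). Inhba, the beta-A subunit, was not called anywhere. Its medians lay between 1.99 FPKM in 14-0-0 and 2.74 in 0-0-2, and its log2 difference from sedentary in 14-0-0 was -0.02 with a 95% interval from -0.50 to 0.46. Without sedentary replicate 6, where Inhba was lowest, it was -0.19 (limma p = 0.266).

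Inha had its highest mean levels in 0-0-2 and sedentary, at 6.26 ± 2.73 and 6.26 ± 2.50 FPKM (SD, n = 10). Its mean was 4.67 ± 1.34 in 14-0-0, 4.59 ± 1.55 in 14-7-0 and 4.57 ± 0.928 in home cage. The log2 differences from sedentary in those 3 groups, -0.37, -0.41 and -0.37, were not called (limma p between 0.0785 and 0.112). Cyber-T, the test of the study's methods, called Inha lower in all 3, with unadjusted p of 0.0399 in 14-0-0, 0.0343 in 14-7-0 and 0.0227 in home cage. Without 14-7-0 replicate 4, limma also called it in 14-7-0, at -0.50 (p = 0.041). Without sedentary replicate 6 the limma differences were -0.27, -0.31 and -0.26, none of them called.

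Among the follistatins, Fstl1, a secreted glycoprotein of the family, was higher in 14-0-0. It ranged from 9.26 to 12.03 FPKM there with a median of 10.2, against 7.71 to 11.9 with a median of 8.94 in sedentary, and 10 of 10 libraries lay above the sedentary median. The log2 fold change was 0.17 ± 0.07 (limma p = 0.0193, adjusted p = 0.414). When the choroid plexus score entered the fit it was 0.18 (p = 0.0572). Cyber-T gave p = 0.12, and cohort 2 alone 0.10 (p = 0.384), so the call was lost under these 3 settings. Without sedentary replicate 6, where Fstl1 was highest among sedentary libraries, limma gave 0.22 in 14-0-0 (p = 0.00128). It then also called Fstl1 higher in 14-7-2, at 0.13 (p = 0.0442), and in 14-14-0, at 0.20 (p = 0.0215). Fstl1 was still not called in 14-7-0, 0-0-2 or home cage.

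Against 14-7-0, whose range was 7.45 to 11.01 FPKM with a median of 9.39, Fstl1 in 14-0-0 gave 0.15 ± 0.06 (limma p = 0.0274, adjusted p = 0.768). This was 0.27 in cohort 1 and 0.03 in cohort 2 (p = 0.0495 for the difference), and 0.11 without 14-7-0 replicate 4 (p = 0.0515). The call was also lost with the choroid plexus score in the fit (0.11, p = 0.141), in the joint fit (p = 0.0654) and by Cyber-T (p = 0.131). As for Gdf11, all 10 choroid plexus markers were called higher in this comparison. Fstl4 and Fstl5, both expressed in brain, were not called in any comparison. Group medians of Fstl4 lay between 4.10 and 4.72 FPKM, and those of Fstl5 between 6.53 and 7.47.

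Fst, tested by permutation only, had medians of 1.04 FPKM in sedentary, 0.793 in 14-0-0 and 1.16 in 0-0-2. Against sedentary its smallest permutation p was 0.0839, in 14-0-0, or 0.521 over the 8 comparisons.

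Counted together, 3 of the 9 tested genes were called in 14-0-0 against sedentary, where 9.15% of all genes tested were called. In 14-7-0 it was 1 of 9 beside 3.26%, and in 14-7-2 it was 2 of 9 beside 4.39%. No member was called in 14-14-0 (4.95% of all genes), 0-0-2 (2.37%) or home cage (2.3%) against sedentary. In 14-7-2 against 14-7-0 it was 0 of 9 beside 5.39%, and in 14-0-0 against 14-7-0 it was 2 of 9 beside 5.63%. The comparisons with sedentary share those 10 libraries, and those with 14-7-0 share its 10.

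**Figure D3:**
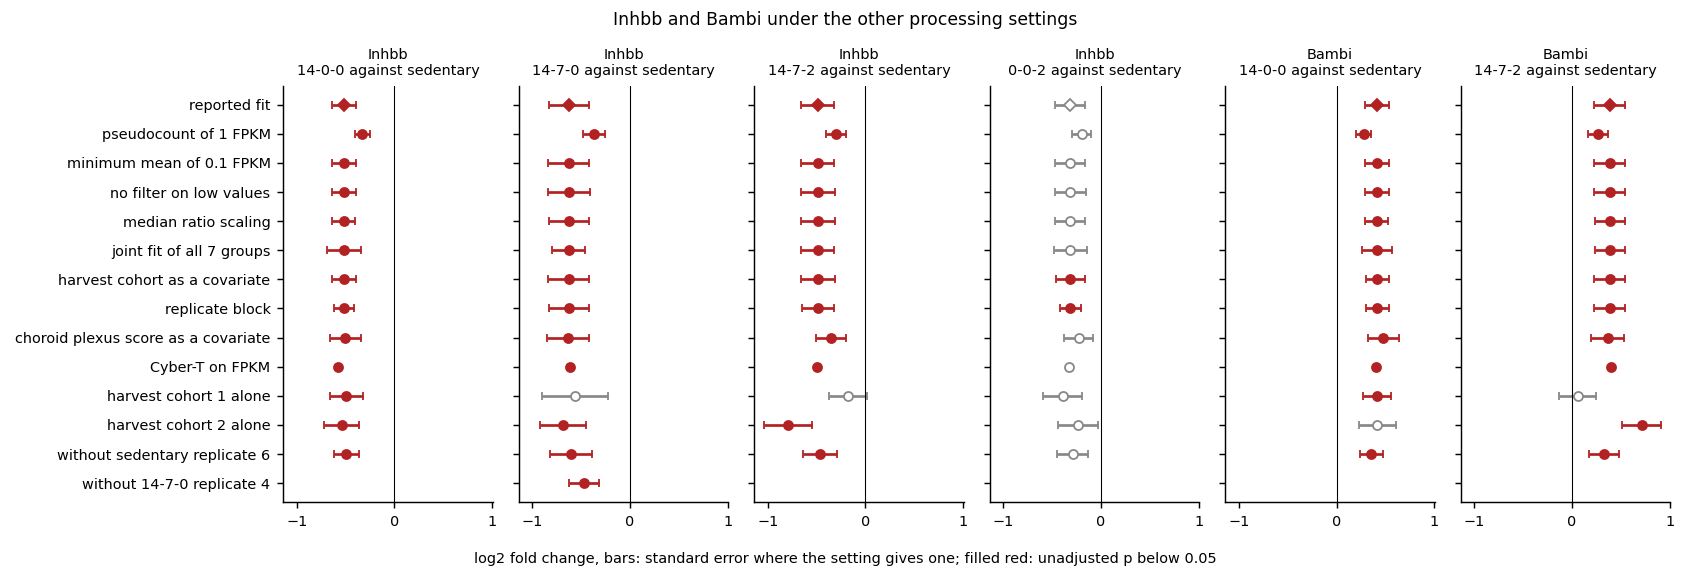
Log2 fold changes (horizontal axes) of Inhbb and Bambi under the reported fit (diamonds) and the other settings (circles), with standard errors where the setting gives one and filled red where the unadjusted p was under 0.05. Inhbb in 14-0-0 stays left of 0 and red in every row shown, while cohort 1 alone is open for Inhbb in 14-7-0 and 14-7-2.

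When the choroid plexus score entered the fit, Inhbb stayed called at -0.50 in 14-0-0, -0.63 in 14-7-0 and -0.36 in 14-7-2, and Bambi at 0.48 in 14-0-0 and 0.37 in 14-7-2.

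Other genes of the pathway were described from fixed lists. Against sedentary, the share of all tested genes called was 9.15% in 14-0-0, 3.26% in 14-7-0 and 4.39% in 14-7-2. It was 4.95% in 14-14-0, 2.37% in 0-0-2 and 2.3% in home cage, and no test compared the lists with other genes. Of 10 tested receptors and co-receptors, 2 rose in 14-0-0: Acvr1c, from 3.45 ± 1.13 to 4.86 ± 0.954 FPKM (limma p = 0.0099, adjusted p = 0.366), and the type II receptor Tgfbr2, from 4.63 ± 0.352 to 5.45 ± 1.04 (p = 0.0261, adjusted p = 0.458). In 14-7-2 only Acvr1c was called, at 4.84 ± 0.758 FPKM (limma p = 0.00735). The paper had singled out Acvr1c from genes higher in both of these groups in the same data. The calls of Acvr1c here thus add no separate evidence for its rise. In 14-14-0 and home cage, Tgfbr2 and the co-receptor Tgfbr3 were called higher. Markers of other tissue moved in the same groups. Of 8 markers of meninges and fibroblasts, 5 were called higher in 14-0-0, 6 in 14-14-0 and 5 in home cage, and of 10 choroid plexus markers 10, 10 and 6. Their part in these receptor changes was not tested. In 14-7-0 and 0-0-2 none of the 10 receptors and co-receptors was called by limma.

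Of 5 other ligands of the family tested, none was called against sedentary. Of 14 other extracellular binders, Wfikkn2, which binds Gdf11, and the collagen-binding proteoglycan Dcn were higher in each of 14-0-0, 14-14-0 and home cage, and none was lower there. Wfikkn2 stood at 0.292 ± 0.126 FPKM in sedentary (SD, n = 10). It stood at 1.499 ± 1.705 in 14-0-0, 2.333 ± 2.454 in 14-14-0 and 1.054 ± 1.141 in home cage, with SDs above the means. Dcn is itself on the list of meninges and fibroblast markers. Markers of that list and of choroid plexus were called higher in these 3 groups as given above. Their part in the Wfikkn2 and Dcn changes was not tested. Of 10 Smads and target genes, 1 was called in 14-0-0, near the 9.15% of all genes. This was the ubiquitin ligase Smurf1, lower by 0.14 on the log2 scale (limma p = 0.0367), and it was also called lower in home cage.

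The list of activity-induced genes holds immediate early and plasticity genes. Of 13 tested, 6 were called lower in 14-0-0, 4 in 14-7-0, 6 in 14-7-2, 5 in 14-14-0 and 3 in 0-0-2. None was called higher against sedentary. In home cage 0 were called, with a median log2 change of -0.16, against -0.57 in 14-0-0. Between 2 and 4 of the 13 had a higher mean than in sedentary in each of the 5 exercise groups. Bdnf is on this list and limma did not call it against sedentary. The paper, with Cyber-T, reported Bdnf above sedentary in 14-7-2 as well as in 14-0-0 in the same data. In sedentary replicate 6 Bdnf stood at 1.18 FPKM, against 14.4 to 22.9 in the other sedentary libraries. No value for this list without that library is given here. The shares called over all genes are those given above, and no test compared the list with other genes. Egr1, an immediate early transcription factor, stood at 71.3 ± 19.9 FPKM in sedentary, 45.2 ± 9.17 in 14-0-0 and 50.02 ± 6.84 in 14-14-0. Over the 70 libraries, Spearman's rho between Inhbb and the score of this list was 0.34, a description across libraries that share groups and harvest. It was not particular to this list or gene. Inhbb had rho of 0.33 with the neocortex score and -0.32 with the dentate granule cell score. With the activity-induced score, rho was -0.48 for Fstl1 and 0.46 for Inha.

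**Figure D4:**
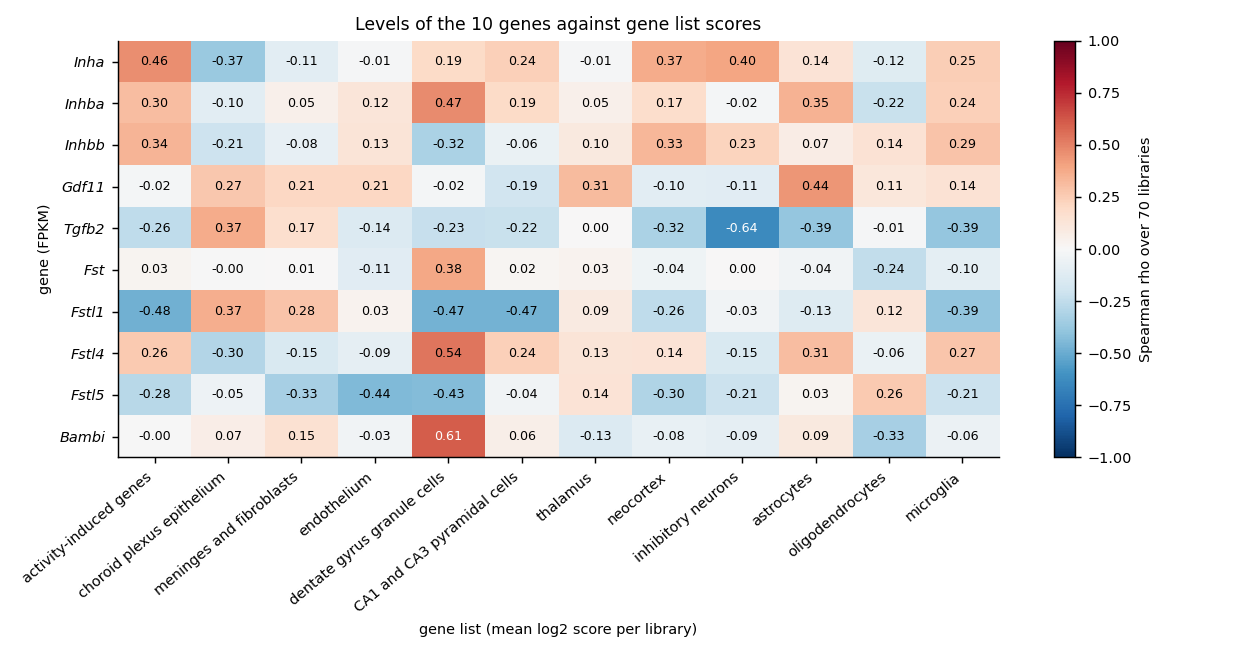
Spearman's rho over 70 libraries between the FPKM of each gene (rows) and the mean log2 score of each gene list (columns), from -1 in blue to 1 in red. The strongest cells are Tgfb2 with inhibitory neurons (-0.64) and Bambi with dentate gyrus granule cells (0.61).

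Levels of the genes also varied with cell type markers. Bambi followed the dentate gyrus granule cell score with rho = 0.61, and with rho = 0.68 once both were centred on group means. The 6 dentate markers summed to between 8.18 FPKM, in replicate 6, and 212 in sedentary, where the median library had 185. In 14-0-0 they summed to between 152 and 239, and the median library had 187, against 200 in 14-7-2. None of the 6 was called in 14-0-0 or 14-7-2, with medians of their log2 changes, which include sedentary replicate 6, of 0.61 in both. Where Bambi was not called these medians were 0.66 in 14-7-0, 0.57 in home cage, 0.52 in 0-0-2 and 0.47 in 14-14-0. Their part in the Bambi result was not tested. Tgfb2 ran against the inhibitory neuron score (rho = -0.64), and Fstl4 with the dentate score (rho = 0.54).

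The genes whose levels ran most like each member over the 70 libraries were also listed. For Inhbb they were Tox3 (rho = 0.67), Sh2b3 (0.65) and Arid5a (0.61). For Bambi they were Plekha2 (0.79), Net1 (0.75) and Slc39a6 (0.73), and for Inhba Adcy1 (0.76), Ncoa1 (0.69) and Add2 (0.68). Inha ran most like Dus3l (0.88), Tgfb2 like Parva (0.84), Fstl4 like Atp2b2 (0.85) and Fstl5 like Mgat4c (0.80). Gdf11 ran most like Myo10 (0.67), Fstl1 like Xrcc5 (0.68) and Fst like Capn3 (0.52). Between members, rho was -0.52 for Inhbb with Bambi and 0.59 for Inhba with Fstl4.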

How the data were processed

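RNA from bilateral dorsal hippocampus was sequenced in 50 bp single reads. The authors aligned reads with ELAND v2e and Bowtie, kept unique alignments with at most 2 mismatches, and deposited FPKM values made by the Tuxedo protocol (Cuffnorm, mm10, per the submitters' processing notes, versions not given in the sources used here). Values were transformed as log2(FPKM + 0.1), so fold changes of low genes are understated. Each of 8 comparisons was fitted with limma 3.58.1 in R 4.3.3 (two-sided, variance trend) on its own 20 libraries, over the 12994 genes averaging 1 FPKM or more, and checked on simulated data. A call is an unadjusted p under 0.05. The study's own test, Cyber-T, was an alternative. Named genes were the 10 members, list genes where called, and the 3 genes most like each member by Spearman's rho. List scores are means of log2 values centred per gene. Members and lists were chosen with earlier results of these data known. Each library was taken as 1 sample, and no source used here ties replicate numbers to litters. Figures used matplotlib 3.10.9.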

Additional observations from a re-analysis of the deposited data

Results flagged for a closer look

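Of 70 sets of 10 libraries (10 genes in 7 groups), 11 held a library whose gap to its nearest neighbour exceeded Dixon's critical value as a share of the range. Chance gives about 1 in 20 sets, or 3.5. Fstl5, Tgfb2 and Gdf11 account for most of them. Fstl5 had a single high library in home cage (13.3 FPKM), sedentary (12.7), 14-14-0 (9.69) and 0-0-2 (9.97). Tgfb2 had a low library in sedentary (3.80, replicate 6) and high ones in 14-14-0 (22.8) and 0-0-2 (18.6). Gdf11 had a low library in 14-7-2 (4.73) and a high one in 0-0-2 (9.60). Inhbb had a high library in 14-14-0 (2.43) and Bambi one in 14-7-0 (3.52).

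Among the 8 called results, the harvest cohorts differed in 2, by an interaction term. Bambi in 14-7-2 against sedentary was higher by 0.66 (log2) in cohort 2 than in cohort 1 (limma p = 0.032). Fstl1 in 14-0-0 against 14-7-0 gave -0.24 for the same difference (limma p = 0.0495). Neither p is adjusted.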

How the results depend on the processing

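Each comparison was refitted under up to 13 alternatives, and no called change reversed its sign. Inhbb in 14-0-0 was called in 12 of 12 alternatives, in 14-7-0 in 12 of 13 and in 14-7-2 in 11 of 12, and Bambi in 11 of 12 for both its calls. The losses among these were in single cohorts of 5 against 5, with log2 values of -0.57 for Inhbb in 14-7-0 and -0.18 in 14-7-2 (cohort 1), and for Bambi of 0.42 in 14-0-0 (cohort 2) and 0.06 in 14-7-2 (cohort 1). Fstl1 stayed called in 9 of 12 against sedentary and 7 of 12 against 14-7-0, and Gdf11 in 7 of 12. Counts of members called that moved by over 1.5 times were as follows, and the cause was not tested. The shares of all genes called, given above, belong to the reported fit. No such share is given for these other settings, so the counts cannot be set beside one. In cohort 1 alone they were 0 in 14-7-0, 0 in 14-7-2, 3 in 14-14-0 and 1 in 14-0-0 against 14-7-0. In cohort 2 alone they were 1 in 14-0-0, 1 in 14-7-2 against 14-7-0 and 0 in 14-0-0 against 14-7-0. Cyber-T gave 2 in 14-7-0, 1 in 14-14-0, 1 in home cage and 0 in 14-0-0 against 14-7-0. The joint fit gave 2 in 14-14-0, 1 in 14-7-2 against 14-7-0 and 1 in 14-0-0 against 14-7-0. The choroid plexus covariate gave 0 in 14-0-0 against 14-7-0, and the cohort covariate 1 in 0-0-2. Without sedentary replicate 6 the counts ran from 0 to 4, with 1 in 14-14-0. Without 14-7-0 replicate 4 they ran from 0 to 2, with 0 in 14-0-0 against 14-7-0. The replicate block gave 2 in 14-7-0 (Inha beside Inhbb), 1 in 14-14-0 (Tgfb2), 1 in 0-0-2 (Inhbb) and 1 in home cage (Inha). The labels do not say that a number marks a shared source. Between 2 and 7 of 10 same-numbered pairs per comparison correlated over 0.1, and 0 to 4 of 10 correlated best with their own number. The median correlation was 0.134 in 14-0-0 and 0.158 in 14-7-0 against sedentary, beside -0.0034 and -0.030 for other numbers of the same cohort. Only in 14-7-2 against sedentary was it the lower value, -0.0057 beside 0.0080. The numbers were not treated as pairs because no label gives a shared source, and the replicate block stands as the paired fit. In 14-0-0, Cyber-T called 3 members as limma did, with Inha in place of Fstl1. Permutation gave 9 of 80 results at p under 0.05, and 9 under each of 2 alternatives chosen after seeing the data. Without both libraries that stood apart, Gdf11 in 14-0-0 against 14-7-0, Tgfb2 in 14-14-0 and Bambi in 14-7-2 were no longer among them. Of the 30 genes most like the members, 12 remained after centring on group means and 22 without both libraries that stood apart. With no read counts, precision at low levels such as those of Fst and Inhbb cannot be stated.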

Other observations

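Inhbb made up 45.4 ± 15.1% of the summed Inhba and Inhbb FPKM in sedentary (SD, n = 10), 36.6 ± 5.91% in 14-0-0, 35.2 ± 7.84% in 14-7-0 and 35.7 ± 11.7% in 14-7-2. The share was 45.3 ± 7.05% in 14-14-0, 35.3 ± 9.88% in 0-0-2 and 42.3 ± 8.54% in home cage. The ranges of all 7 groups overlapped, and no test was run on this share. The highest sedentary value, 75.7%, came from replicate 6, the library low in Neurod6, and the lowest was 27.2%. Medians were 41.0% in sedentary, 35.8% in 14-0-0, 32.8% in 14-7-0 and 35.7% in 14-7-2. They were 43.4% in 14-14-0, 32.7% in 0-0-2 and 41.2% in home cage.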
